A study of Mus musculus with 20 samples.

Results

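The genomic occupancy of Tcf4 was described from the 2 anti-Flag Cut&Tag libraries of the series, in cells that carried a tagged Tcf4. A region was taken as reproducible when peaks of both libraries merged into it, with an overlap of at least 1 bp and with mitochondrial peaks left out. This gave 14083 regions of 30963 merged regions. The libraries of replicate 1 and replicate 2 held 28602 and 16829 peaks. The whole series has 20 samples, 18 of them with a peak list, and the 16 other lists come from ATAC-seq and from Cut&Tag of H3K4me1, H3K27ac and H3K27me3.

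The study followed the Nkx2.1 lineage, cells born in the ventral telencephalon, into the mouse neocortex, where GFP-positive cells were sorted from pups at P7 or P8. For Tcf4 occupancy, a 3xHA-3xFlag tag had been placed at the C-terminal end of the endogenous Tcf4 gene and was expressed after recombination by Nkx2.1-Cre, and 200000 nuclei went into each library. For the other assays, WT (Nkx2.1-Cre) and Tcf4 cKO (Tcf4f/f; Nkx2.1-Cre) cells were used at 50000 per library, with 2 libraries per genotype. The Cre driver acts from the ventral progenitors onward, so every sorted cell type of the lineage contributed, and more cells with an occupied site cannot be told apart from more signal per cell. No library made without the tag or with a control antibody was analysed here, and nothing in the labels says whether replicates came from separate litters, so the spread between them may be technical.

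Tcf4 is a class I basic helix-loop-helix factor, also called an E protein. E proteins bind the E-box, the hexamer CANNTG, as homodimers or with a tissue-restricted partner such as Olig2, and Id proteins hold them off DNA. In the oligodendrocyte lineage, the partners Olig1 and Olig2 are defining factors of the progenitor.

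Summit windows of 151 bp are printed for 3 kinds of site, so that the occupied DNA can be read directly. They were read from the plus strand of GRCm38 (RefSeq) and have every CANNTG in capitals. The first set holds distal sites near genes of the oligodendrocyte lineage and of the E protein partner Tcf12, at chr16:91305716-91305866 (36.0 kb from the Olig1 start site, intergenic), chr16:91246512-91246662 (21.1 kb from the Olig2 start site, intergenic), chr19:10232491-10232641 (Myrf intron), chr19:55757005-55757155 (Tcf7l2 intron) and chr9:71959909-71960059 (Tcf12 intron). Each is the strongest distal site of its gene among those with an E-box, so the presence of an E-box here is not a finding.
Olig1: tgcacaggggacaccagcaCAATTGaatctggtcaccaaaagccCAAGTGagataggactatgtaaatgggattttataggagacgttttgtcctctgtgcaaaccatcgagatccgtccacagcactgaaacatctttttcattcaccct
Olig2: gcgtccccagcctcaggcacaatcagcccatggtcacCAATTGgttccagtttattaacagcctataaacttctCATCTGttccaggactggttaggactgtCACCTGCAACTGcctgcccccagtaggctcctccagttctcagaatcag
Myrf: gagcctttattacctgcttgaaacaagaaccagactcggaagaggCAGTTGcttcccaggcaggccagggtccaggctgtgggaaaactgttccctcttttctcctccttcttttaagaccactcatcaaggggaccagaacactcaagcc
Tcf7l2: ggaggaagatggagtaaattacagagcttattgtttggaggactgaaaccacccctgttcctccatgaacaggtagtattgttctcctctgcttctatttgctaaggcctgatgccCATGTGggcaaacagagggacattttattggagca
Tcf12: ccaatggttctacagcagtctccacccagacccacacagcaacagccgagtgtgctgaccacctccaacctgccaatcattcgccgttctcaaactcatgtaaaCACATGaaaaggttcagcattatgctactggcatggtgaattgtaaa
The second set holds the 4 strongest distal sites with CAGCTG that were not recurrent, that is, not among the strongest peaks of most other libraries. They lie at chr4:16125924-16126074 (intronic, nearest start site Ripk2), chr14:56560440-56560590 (intronic, nearest start site Cenpj), chr16:94698624-94698774 (intergenic, nearest start site Dyrk1a) and chr17:8347299-8347449 (intergenic, nearest start site Prr18).
Ripk2: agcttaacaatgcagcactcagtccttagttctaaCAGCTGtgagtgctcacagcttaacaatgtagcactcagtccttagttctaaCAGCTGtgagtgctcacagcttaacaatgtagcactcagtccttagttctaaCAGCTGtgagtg
Cenpj: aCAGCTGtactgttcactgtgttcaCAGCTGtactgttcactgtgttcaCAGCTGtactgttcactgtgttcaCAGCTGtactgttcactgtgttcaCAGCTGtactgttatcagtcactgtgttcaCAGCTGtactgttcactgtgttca
Dyrk1a: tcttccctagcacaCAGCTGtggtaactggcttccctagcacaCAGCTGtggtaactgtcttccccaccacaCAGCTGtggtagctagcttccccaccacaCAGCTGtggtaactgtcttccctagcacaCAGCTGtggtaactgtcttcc
Prr18: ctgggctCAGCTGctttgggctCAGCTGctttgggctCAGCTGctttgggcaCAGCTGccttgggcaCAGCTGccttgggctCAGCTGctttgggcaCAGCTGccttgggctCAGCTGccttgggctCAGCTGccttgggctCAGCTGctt
The third set holds the 3 strongest promoter sites that were not recurrent and whose windows were free of exons, at chr3:108722420-108722570 (186 bp upstream of a Gpsm2 start site), chr4:45184472-45184622 (328 bp upstream of a Frmpd1 start site) and chr17:25920269-25920419 (617 bp upstream of a Rab40c start site).
Gpsm2: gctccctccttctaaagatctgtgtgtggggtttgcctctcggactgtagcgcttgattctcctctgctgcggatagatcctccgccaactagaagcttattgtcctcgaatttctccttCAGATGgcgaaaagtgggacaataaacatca
Frmpd1: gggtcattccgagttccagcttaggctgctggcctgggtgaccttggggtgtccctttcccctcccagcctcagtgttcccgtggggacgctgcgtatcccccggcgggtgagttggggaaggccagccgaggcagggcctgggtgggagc
Rab40c: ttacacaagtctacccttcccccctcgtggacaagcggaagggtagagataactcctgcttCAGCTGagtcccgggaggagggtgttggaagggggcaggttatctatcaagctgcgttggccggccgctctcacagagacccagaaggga
Reading down these lines, the distal lineage sites, chosen for an E-box, carried 1 to 4 of mixed cores, and the 4 strong distal sites, chosen for CAGCTG, carried 3 to 10 copies of it in tandem repeats. The promoter sites carried 1, 0 and 1 E-box.

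The 2 libraries differed in length more than in what they ranked highest. Of the peaks of replicate 1, 49.6% were overlapped by a peak of replicate 2 (95% Wilson interval 49.0 to 50.2), and of the peaks of replicate 2, 85.4% were overlapped by replicate 1 (84.8 to 85.9). Among the strongest 10% of each list these shares were 98.2% and 99.9%, and among the weakest 10% they were 11.5% and 62.9%. The median peak had a −log10 q-value of 6.10 in replicate 1 and 5.26 in replicate 2, and a fold enrichment over the local background of 4.77 and 5.19. These intervals, and those that follow, cover counting error over regions only.

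Across the 14083 reproducible regions, peak strength, the −log10 q-value, had a Spearman correlation of 0.65 between libraries, given as a description because regions share their libraries. Summits of the libraries lay a median of 84 bp apart. Regions had a median width of 810 bp and covered 12.01 Mb. Strength is given below as the percentile of the −log10 q-value within its own list, averaged over both libraries, because the lists differ in scale.

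**Figure D1:**
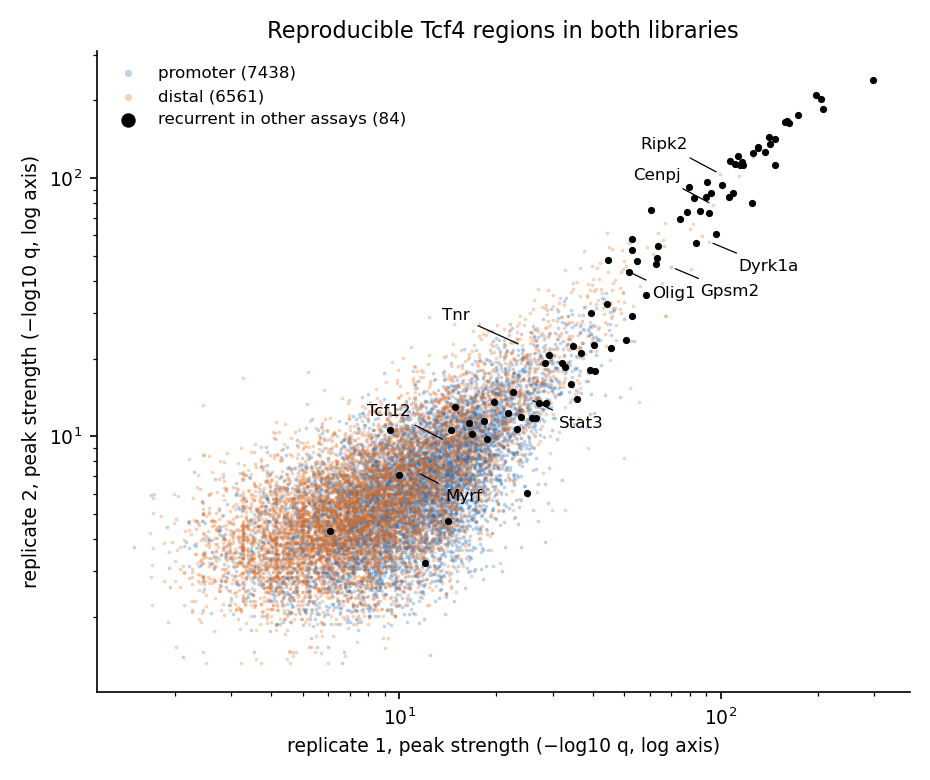
Peak strength, as the −log10 q-value on log axes, of the reproducible Tcf4 regions in replicate 1 (x axis) and replicate 2 (y axis). Blue points are promoter regions, orange points are distal regions and black points are the 84 regions that are recurrent in other assays, which fill the upper right end together with distal sites such as those near Ripk2 and Cenpj.

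Tcf4 regions were divided between promoters and distal sites almost evenly, with promoters slightly ahead. A summit within 1000 bp of a protein-coding start site was found in 7468 regions, or 53.0% (52.2 to 53.9), while such windows make up 2.37% of the reference. A further 1.99% lay in exons, 23.0% in introns and 22.0% between genes. The 6615 distal regions lay a median of 30.3 kb from the nearest protein-coding start site, with 22.3% within 10 kb and 20.8% beyond 100 kb. For comparison, 39.5% of the 32120 ATAC consensus regions of the series were promoters by the same rule (38.93 to 39.997).

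Agreement between the libraries differed by kind of site. Promoters made up 29.1% (28.3 to 29.8) of the 14417 peaks of replicate 1 that had no partner and 12.6% (11.3 to 13.95) of the 2463 such peaks of replicate 2, so peaks called in 1 library were more often distal than reproducible regions were. The single lists gave promoter shares of 41.0% and 47.5%.

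Peak strength was not spread evenly over these sites. Promoters made up 36.2% (34.4 to 38.0) of the weakest quintile of reproducible regions, 63.8% of the fourth quintile and 58.0% (56.2 to 59.8) of the strongest. At the very top the order turned, since 9 of the 100 strongest regions were promoters. Promoter regions had a median −log10 q-value of 10.7 in replicate 1 and 6.08 in replicate 2, and distal regions of 8.07 and 5.47.

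Many of the strongest regions by list were also strong in other assays of the series. A region was called recurrent when it was among the strongest 2% of peaks in at least 8 of the 16 other libraries, a definition made after the data were seen. It applied to 84 regions, among them all of the 10 strongest, 47 of the 100 strongest and 30 promoters. The strongest of all lay at chr9:35305125-35305704, 37.6 kb from Rpusd4, with −log10 q-values of 297 and 240.0, and was in the strongest 2% of all 16 other libraries, including those without Tcf4. Repeat-masked letters made up 51.2% of the summit windows of recurrent regions and 10.3% of the other windows, and 3 of the 84 windows contained CAGCTG. Their source was not tested, and the named strongest regions are therefore given both with and without them.

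With recurrent regions counted, the 10 strongest promoter regions were nearest to Gm10800, Phf21a, Gm21738, Plcb4, Gpsm2, Gm10801, Usp5, Mpc2, Hdlbp and Frmpd1. Without them, Gpsm2, a regulator of spindle orientation, led with −log10 q-values of 70.1 and 45.2. It was followed by Usp5, a deubiquitinating enzyme (43.8 and 35.9), Mpc2, a subunit of the mitochondrial pyruvate carrier (42.5 and 34.5), and Hdlbp, an RNA-binding protein (43.4 and 34.1). Gsk3b, the kinase that marks β-catenin for degradation, was also among the 10, with values of 49.8 and 28.5, as were Frmpd1, Tef, Rab40c, Ddx42 and Smim13. All 10 had an ATAC-seq peak and an H3K27ac peak in all WT and all Tcf4 cKO libraries, and 2 of the 10 windows contained an E-box.

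The 10 strongest distal regions by list were all recurrent, and were nearest to Rpusd4, Mrgprd, Gm45871, Tmem196, A630089N07Rik, Gm14496, Fgf14, Adgre5, Asmt and Cr2. Without recurrent regions the leading distal sites were nearest to Gatad2b, Galc, Ripk2, Tmco1, Cenpj, Znrf1, Chl1, Itpr2, Hpf1 and Dyrk1a. The region near Gatad2b, a subunit of the NuRD complex, had −log10 q-values of 126 and 120.3. The site 37.6 kb from Ripk2 had 99.2 and 104, and that 8.03 kb from Cenpj, a centriole protein, had 94.2 and 79.0. Itpr2, an intracellular calcium channel of the oligodendrocyte lineage list, had an intronic region with 87.03 and 59.5. The Znrf1 window held 5 copies of CATCTG, which reads CAGATG on the other strand, in a tandem repeat. Peaks of the other assays lay at these 10 sites in 3 to 14 of the 16 other libraries, with the fewest at Znrf1 and 5 at Dyrk1a.

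**Figure D2:**
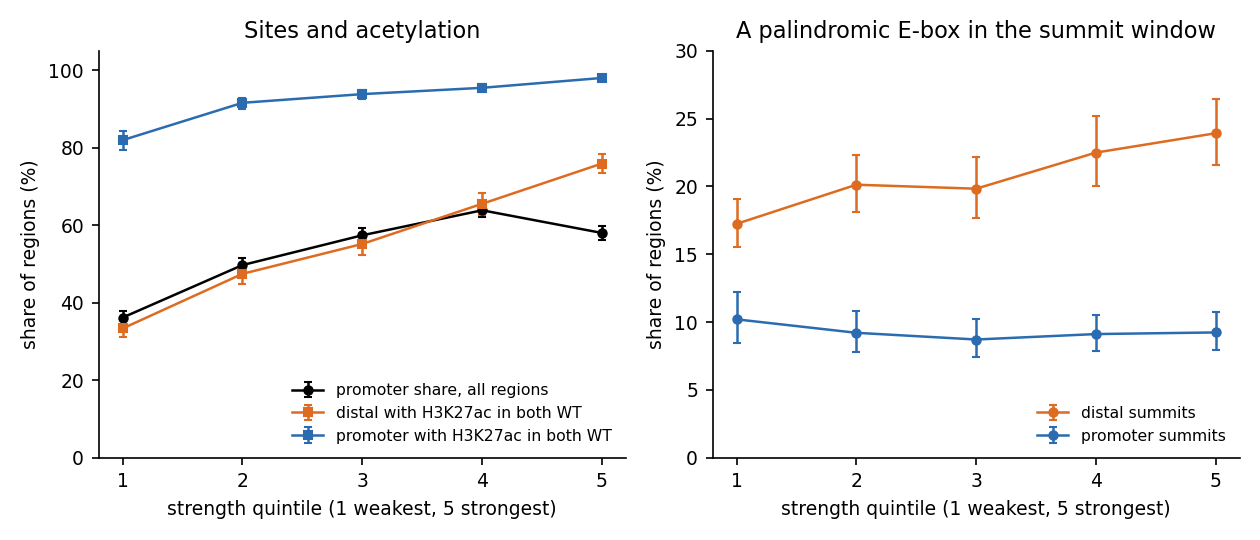
Share of reproducible Tcf4 regions (y axis, percent, with 95% Wilson intervals) by quintile of peak strength (x axis). On the left, the promoter share rose from 36.2% to 63.8% and then stood at 58.0%, and the H3K27ac share of distal regions rose from 33.4% to 75.9%, and on the right the share of summit windows with the E-box CAGCTG rose at distal regions from 17.2% to 23.9% and stayed between 8.7% and 10.2% at promoters.

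The E-box CAGCTG was concentrated at distal summits. It was present within 75 bp of 20.3% of distal summits (19.4 to 21.3) and of 6.83% of windows of the same length 1000 bp to the right, a difference of 13.5 percentage points (Newcombe 95% interval 12.4 to 14.6). At promoter summits the shares were 9.23% and 6.37%, a difference of 2.85 points (1.99 to 3.71). The window around the start sites of all protein-coding genes held CAGCTG in 9.52% of cases. Both strands were searched, which for this palindrome gives the same matches.

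The other E-box cores behaved differently. CAGATG was present at 16.1% of distal summits and 11.97% of their right flanks. CACCTG was present at 10.3% and 12.1%, and CACATG at 9.3% and 12.5%, so both were less common at distal summits than beside them. Because of these opposite shifts, any CANNTG was found at 57.4% of distal summits and 57.1% of flanks, a difference of 0.27 points whose interval spans 0 (−1.41 to 1.958). At promoters CANNTG was found at 36.2% of summits against 51.3% of flanks, where the mean GC content of the summit windows was 65.8% against 52.6% at distal summits. GGGCGG, the core of the GC box, was present at 39.0% of promoter summits and 7.0% of distal ones, and at 35.4% of all start sites.

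The position of CAGCTG tracked the summit in both libraries. At distal regions the motif occurred in 4.35% of the summits of replicate 1 and 4.96% of those of replicate 2 in the 20-bp bin from 20 to 40 bp, and in 4.34% and 4.85% in the mirror bin from −40 to −20 bp. Over the 40 bp centred on the summit itself it was less frequent, with 3.44% and 3.43% per bin. Within 220 bp of the summit the mean per bin was 3.59% and 3.57%, and between 300 and 500 bp it was 1.41% and 1.48%. At promoters the curve was almost flat, with 1.46% and 1.505% near the summit and 1.07% and 1.06% beyond 300 bp.

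**Figure D3:**
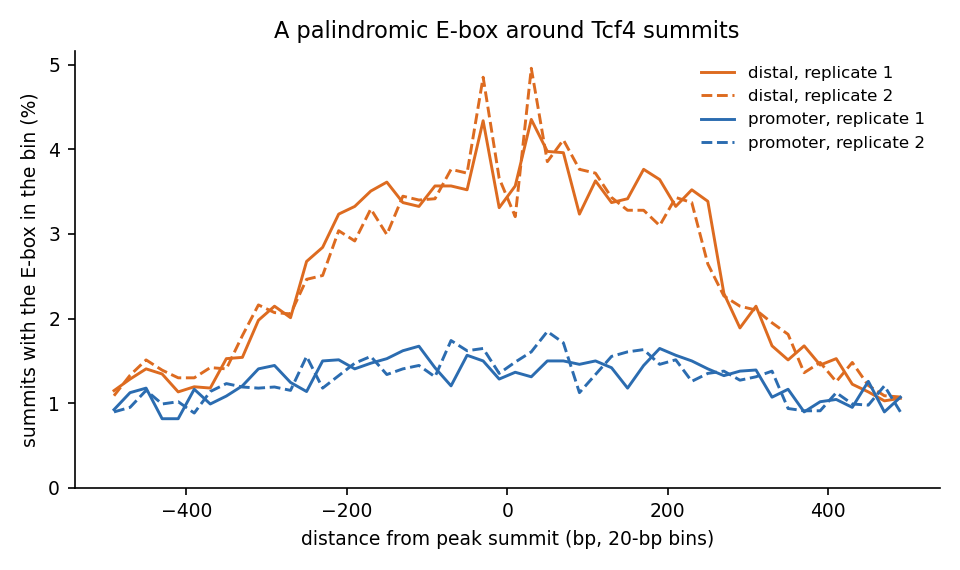
Share of Tcf4 summits with the E-box CAGCTG in each 20-bp bin (y axis, percent) by distance from the summit in bp (x axis), for distal (orange) and promoter (blue) regions and for replicate 1 (solid) and replicate 2 (dashed). Distal curves form a plateau over about 220 bp on each side with maxima of 4.35% and 4.96% just beside the summit, and promoter curves reach at most 1.85%.

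The E-box was also more common in distal open chromatin with Tcf4 than in that without. At the centres of distal ATAC consensus regions, CAGCTG was present in 23.3% of those with a Tcf4 region and in 12.9% of those without, a difference of 10.5 points (9.14 to 11.8). At promoter ATAC regions the shares were 9.15% and 9.07%, a difference of 0.0789 points (−0.939 to 1.08). Peak strength moved with the motif at distal sites only in part: 17.2% of the weakest quintile (15.6 to 19.1) and 23.9% of the strongest quintile (21.6 to 26.4) contained CAGCTG. Distal peaks found in 1 library alone carried it at 15.5% in replicate 1 and 15.2% in replicate 2, between the flanks and the reproducible regions.

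Several of the strongest distal windows were tandem arrays of CAGCTG, which led to a count of copies, made after these sequences had been seen. Among distal summit windows, 102 of 6615 (1.54%, 1.27 to 1.87) held 3 or more copies, against 4 (0.0605%) of the flank windows and 12 of 7468 promoter windows (0.161%). Over promoter and distal regions together, windows with 3 or more copies made up 11.3% (5.29 to 22.6) of the 53 regions among the 100 strongest that were not recurrent, 2.86% of the next 400 without recurrent regions, and 0.715% of all weaker regions. The 102 distal windows had a median strength percentile of 76.7, against 56.9 with 1 copy and 55.3 without a copy. Only 20.6% of them overlapped an ATAC consensus region, against 81.0% of windows with 1 copy, and 38 of the 102 had no peak in any of the 16 other libraries, against 18 of the 1037 windows with 1 copy. None of the 102 was recurrent.

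Such arrays were then searched for in the whole reference, independently of the peaks. Distal stretches with 3 or more CAGCTG within 151 bp numbered 4963, and Tcf4 regions were present at 4.97% of those with 3 or 4 copies (4.37 to 5.65), 8.75% of those with 5 to 9 copies (6.04 to 12.5) and 32.4% of the 182 with 10 or more copies (26.0 to 39.5). An ATAC-seq peak of at least 1 WT library was present at 10.97% of stretches with 3 or 4 copies and at 4.95% of the 182. Of the 59 of these 182 stretches with a Tcf4 region, 50 had no WT ATAC-seq peak. The longest occupied array held 175 copies at chr12:99504728-99509593, nearest to Foxn3. Over the 479 stretches with 5 or more copies, replicate 1 had peaks at 27.1% and replicate 2 at 19.0%, while the 16 other libraries ranged from 2.51% to 7.31%. Over all 4963 stretches the libraries did not separate in this way. The Tcf4-tag libraries had peaks at 9.39% and 6.59% of them, WT ATAC-seq at 7.21% and 9.95%, and WT H3K4me1 at 7.98% and 8.79%.

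Arrays of other hexamers were occupied less often. To keep CAGCTG out of the comparison, stretches of 10 or more copies were counted only when no CAGCTG lay within 75 bp. Tcf4 regions were present at 13.7% of 205 such CAGATG arrays (9.62 to 19.0), 3.77% of 504 CACCTG arrays (2.43 to 5.81) and 0.925% of 2162 CACATG arrays (0.600 to 1.42). Of the palindromes with the same composition that are not E-boxes, CTGCAG was occupied at 9.13% of 208 arrays (5.93 to 13.8) and GAGCTC at 1 of 34. By the study's methods, duplicates were removed and only reads with a unique position were kept, and the part of read placement in these shares was not tested.

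**Figure D4:**
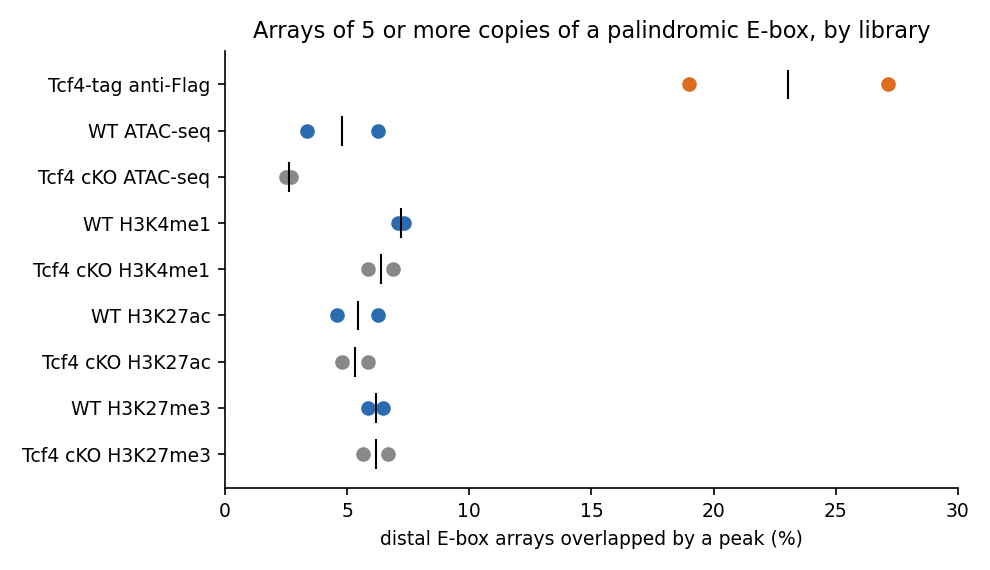
Share of the 479 distal stretches of the reference with 5 or more CAGCTG that were overlapped by a peak (x axis, percent), by assay and genotype (y axis), with 1 point per library and a bar at the mean of 2 libraries. The Tcf4-tag libraries stood at 27.1% and 19.0%, and none of the 16 other libraries exceeded 7.31%.

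Tcf4 regions lay mostly in accessible chromatin, with a difference between promoters and distal sites. An ATAC consensus region was overlapped by 95.4% of promoter regions (94.95 to 95.9) and 71.5% of distal regions (70.4 to 72.5). Seen from the other side, 56.6% of promoter and 23.9% of distal consensus regions held Tcf4. Occupancy rose with the authors' mean WT accessibility: at distal consensus regions the share with Tcf4 was 2.19% in the least accessible quintile, 15.6% in the middle quintile and 65.4% in the most accessible quintile (63.9 to 66.8), and at promoters it was 12.03%, 60.7% and 94.5%. Across Tcf4 regions in consensus regions, strength and accessibility had a Spearman correlation of 0.53 at 7128 promoters and 0.43 at 4727 distal sites, both from shared libraries.

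Accessibility was compared between genotypes by the presence of a peak. Consensus regions with an ATAC-seq peak in each WT library but none in Tcf4 cKO numbered 328, and 22.3% of them held Tcf4 (18.1 to 27.1). Of the 180 with the opposite pattern, 1 did (0.556%, 0.098 to 3.08). Consensus regions with a peak in all 4 libraries held Tcf4 in 38.2% of 30379 cases. Accessibility differed among these sets, since the medians of the authors' mean WT value were 5.65, 3.61 and 7.18 log2 normalized reads, and distal consensus regions of the second quintile of accessibility, with a median of 5.85, held Tcf4 in 7.14% of cases (6.38 to 7.997).

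Histone marks at distal Tcf4 regions showed more H3K27ac than other distal open regions, and less of it in the Tcf4 cKO libraries. H3K27ac peaks, a mark of active enhancers and promoters, were present at 77.6% and 70.9% of the 4727 distal Tcf4 regions in consensus regions in the WT libraries, and at 65.1% and 54.7% in the Tcf4 cKO libraries. The genotypes did not overlap, with means of 74.3% ± 4.76 and 59.9% ± 7.33 (SD, n = 2 each). At the 14802 distal consensus regions without Tcf4 the values were 35.9% and 27.8% in WT and 31.4% and 24.6% in Tcf4 cKO, which did overlap. The excess at Tcf4 sites over the other distal sites was 41.7 and 43.1 points in the WT libraries and 33.6 and 30.1 points in the Tcf4 cKO libraries. An exact two-sided permutation test over 2 against 2 libraries cannot go below p = 0.33, the value it gave for this excess, so no call was possible. Over all 6615 distal Tcf4 regions the difference in H3K27ac, Tcf4 cKO minus WT, was −11.8 points, and it was −6.51 with mark peaks held to a −log10 q-value of at least 5 and −7.26 without Tcf4 cKO replicate 2. The make-up of the sorted cells and the state of each cell cannot be told apart in this comparison. The distal sets with and without Tcf4 were not matched for accessibility. Distal consensus regions had a median WT value of 7.49 log2 normalized reads with Tcf4 and 6.10 without. Tcf4 regions were also called only in cells that had Tcf4. The part of these differences in the H3K27ac shares was not tested.

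H3K4me1, a mark of enhancers, was present at 78.8% ± 4.91 of these distal Tcf4 regions in WT and at 83.2% ± 1.80 in Tcf4 cKO (SD, n = 2), with overlapping libraries. At distal consensus regions without Tcf4 it was present at 63.0% ± 4.92 in WT and 72.0% ± 2.39 in Tcf4 cKO, without overlap. H3K27me3, the mark laid down by Polycomb repressive complex 2 (PRC2), was present at 16.3% ± 3.22 and 11.6% ± 0.66 of the distal Tcf4 regions, without overlap. At distal consensus regions without Tcf4 these shares were 7.97% ± 0.84 and 8.24% ± 0.94, with overlapping libraries. At promoter Tcf4 regions, H3K27ac was present at 95.6% ± 1.52 in WT and 92.3% ± 2.83 in Tcf4 cKO. At promoter consensus regions without Tcf4 the shares were 72.4% ± 5.65 and 66.7% ± 6.73. The differences, Tcf4 cKO minus WT, were −3.31 points with Tcf4 and −5.69 points without. H3K27me3 was present at 29.1% ± 5.85 and 22.9% ± 0.46 of promoter Tcf4 regions. H3K4me1 was present at 41.1% and 63.8% of promoter Tcf4 regions in the WT libraries and at 71.8% and 72.8% in the Tcf4 cKO libraries. The WT libraries varied widely (52.4% ± 16.1), so the size of this difference is uncertain. Promoter consensus regions without Tcf4 stood at 52.6% ± 8.78 in WT and 68.2% ± 0.57 in Tcf4 cKO, also without overlap. Strong Tcf4 regions held H3K27me3 more often than weak ones: both WT libraries had a peak at 6.2% of distal regions of the weakest quintile and 22.1% of the strongest, and at promoters these shares were 14.9% and 32.9%.

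**Figure D5:**
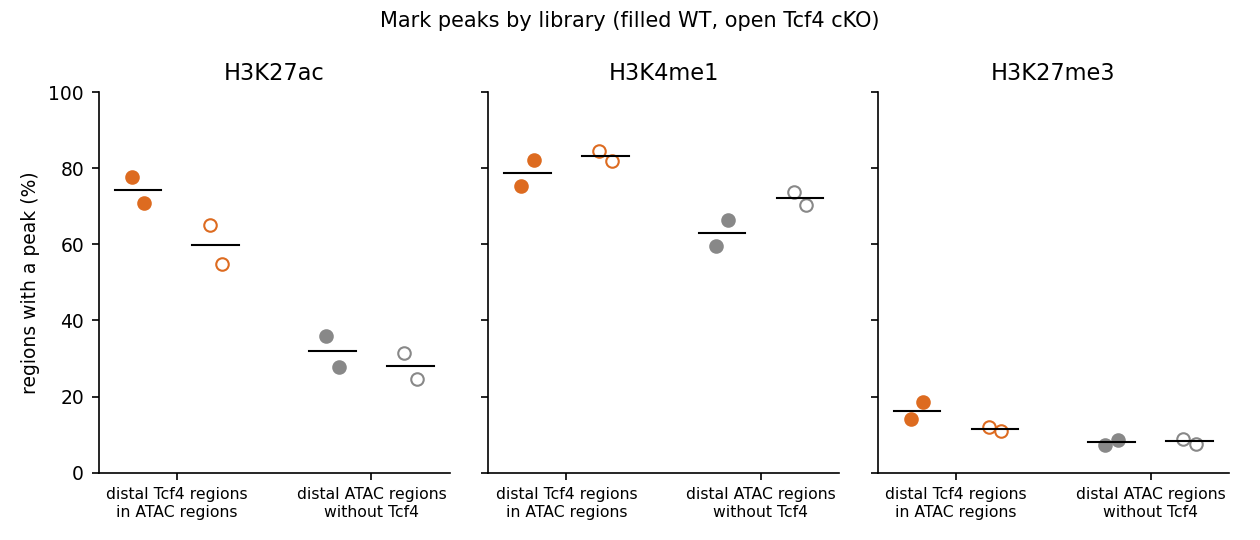
Share of regions with a mark peak (y axis, percent) in each library, filled for WT and open for Tcf4 cKO, at distal Tcf4 regions in ATAC consensus regions (orange, 4727 regions) and at distal ATAC consensus regions without Tcf4 (grey, 14802 regions), with a line at the mean of 2 libraries. For H3K27ac the Tcf4 regions stood at 77.6% and 70.9% in WT and at 65.1% and 54.7% in Tcf4 cKO.

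Distal Tcf4 regions with 1 or 2 copies of CAGCTG had larger differences between genotypes in H3K27ac and ATAC-seq peaks than those without, a split made after the data were seen. At the 1243 regions with 1 or 2 copies, H3K27ac was present at 66.4% and 58.6% in WT and at 49.3% and 37.4% in Tcf4 cKO. At the 5270 regions without a copy it was present at 67.4% and 62.0% in WT and at 58.7% and 50.1% in Tcf4 cKO. The mean differences, Tcf4 cKO minus WT, were −19.1 and −10.3 points. At the 102 regions with 3 or more copies the difference was −2.94 points, with overlapping libraries. For H3K27me3 the differences were −3.66 points with 1 or 2 copies and −3.92 without a copy. An H3K27ac peak in each WT library but none in Tcf4 cKO was found at 8.93% of regions with 1 or 2 copies and 5.60% of those without, a difference of 3.33 points (1.73 to 5.15). For ATAC-seq peaks these shares were 6.11% and 2.83%, a difference of 3.29 points (1.99 to 4.82). Smaller differences in the same direction were present at distal consensus regions without a reproducible Tcf4 region. There, ATAC-seq peaks were lost in this sense at 3.61% of regions with CAGCTG and 1.36% of those without (difference 2.26 points, 1.48 to 3.21). For H3K27ac peaks these shares were 5.13% and 3.47% (difference 1.66 points, 0.697 to 2.78). The mean H3K27ac differences there, Tcf4 cKO minus WT, were −7.57 points with CAGCTG and −3.28 without, the latter with overlapping libraries. These intervals count regions and not libraries. For the share with CAGCTG minus the share without, an exact two-sided permutation test over 2 against 2 libraries gave p = 0.33 in each of these 3 comparisons. That is the smallest value it can give, so no call was possible.

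Promoters with and without Tcf4 differed in their marks. Genes with H3K27ac but no H3K27me3 at the promoter in both WT libraries had a Tcf4 region there in 66.5% of 9420 cases, and genes with both marks in 69.8% of 2136 cases. Genes with H3K27me3 alone did so in 6.58% of 1444 cases, and genes with neither mark in 3.10% of 8911 cases. The shares of these 4 groups of genes that were nearest to a distal region were, in the same order, 23.4%, 31.3%, 25.6% and 13.04%.

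Target genes were then described by lists fixed with earlier results of these data known, against the share of all 21911 protein-coding genes. A Tcf4 region at the promoter was found for 37.1% of genes, a distal region with that gene as the nearest for 20.1%, and either for 48% of genes. Of the 23 genes of the oligodendrocyte lineage list, 10 had a promoter region and 20 were nearest to a distal region, 64 distal regions in all. Mag, a myelin gene, had neither. Of the 20 genes of the astrocyte lineage list, 5 had a promoter region and 13 a distal one, 19 regions in all, and Nfix, Fgfr3, Aldh1l1, Aqp4 and Acsl6 had neither. The distal shares, 86.96% and 65.0%, were above the background of 20.1%, and the promoter shares, 43.5% and 25.0%, lay on either side of 37.1%. The median number of distal regions per gene was 2 and 1, against 0 over all genes.

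Cell type markers differed in how many had a Tcf4 region. Of 8 oligodendrocyte lineage markers, 7 had a Tcf4 region, with 20 distal regions, and of 5 astrocyte markers 3 had one distal region each. Of 4 interneuron markers, only Sst was nearest to a distal region. In the study's single-cell data, the sorted cells included endothelial cells, while projection neurons were not found. Among markers of further cell types, 1 of 6 microglia markers (P2ry12), 1 of 5 endothelial markers (Pecam1) and 1 of 6 projection neuron markers (Slc17a7) were nearest to a distal region. None of these 17 genes had a promoter region. These distal shares, 25% for interneuron, 16.7% for microglia, 20% for endothelial and 16.7% for projection neuron markers, lay near the 20.1% of all genes.

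The Olig1 and Olig2 locus held 8 reproducible regions. The strongest lay at chr16:91304947-91306231, 36.0 kb from the start site of Olig1, and had −log10 q-values of 49.5 and 44.5, within the strongest 0.511% of all regions. It overlapped an ATAC consensus region and had H3K27ac peaks in both WT and both Tcf4 cKO libraries. The Olig1 promoter region was weak, with 4.96 and 4.31, and had H3K27ac peaks in each WT but no Tcf4 cKO library. Near Olig2, 4 distal regions were found, from 8.11 to 40.9 kb away, of which that at chr16:91246361-91247013 had values of 19.3 and 10.8 and contained 4 E-boxes, and that at chr16:91191158-91192440 had 12.4 and 29.0. No region was found at the Olig2 promoter.

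Other genes of the oligodendrocyte lineage had mostly distal regions of middle strength. Tnr, an extracellular matrix protein of oligodendrocyte progenitors, had 11 distal regions, the strongest with −log10 q-values of 24.0 and 22.5, with CAGCTG in its window and with H3K27ac peaks in each WT but no Tcf4 cKO library. Gpr17, a receptor of committed precursors, had a promoter region with 20.7 and 18.4. Myrf, the transcription factor of myelin genes, had an intronic region with 11.3 and 7.28, where H3K27ac peaks were again found in each WT but no Tcf4 cKO library. Tcf7l2, a Wnt effector of maturing oligodendrocytes, had 5 distal regions and none at the promoter, the strongest with 13.9 and 7.40. All 5 of its windows contained an E-box, which included CAGCTG only at chr19:55951353-55951978. Sox10, a defining factor of the lineage, had a weak promoter region (6.18 and 3.24) and a distal one 27.8 kb away (13.7 and 5.15), and Mbp had a promoter region (4.41 and 2.70) and 5 distal regions.

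Genes of astrocyte development had fewer distal regions, and Glul and Stat3 held the strongest regions of that list. Stat3, a transducer of astrogenic cytokine signals, had a promoter region with −log10 q-values of 25.3 and 13.97. Glul, glutamine synthetase, had a distal region 57.2 kb away with 32.4 and 16.3, which lay outside the ATAC consensus regions. Slc1a2, a glutamate transporter, had a promoter region with 14.1 and 8.14. Nfia, an NFI factor that drives astrocyte formation, had 5 distal regions whose strongest, 229 kb from the nearest start site of Nfia, had 8.85 and 4.36, and Nfib had a promoter region (8.89 and 5.51) and 2 distal ones. The S100b region lay in an intron of Dip2a, held 3 copies of CAGCTG in its summit window and 12 in its whole array, and had 7.45 and 2.88, with no peak in any other library. Nfix was the nearest gene of 6 peaks of replicate 1 and none of replicate 2, and Fgfr3 of 1 and none. Neither was therefore the nearest gene of a reproducible region. The closest reproducible summits lay 32.1 kb from Nfix and 47.3 kb from Fgfr3 and were given to other genes.

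Of the 7 genes of the E protein and Id list, 3 had a promoter region (42.9%, against 37.1% of all genes). A distal region was found for 5 (71.4%, against 20.1%). The promoters of Tcf3, Tcf4 and Tcf12 had H3K27ac but no H3K27me3 in both WT libraries. Of all genes in that state, 66.5% had a Tcf4 region at the promoter. Tcf4 had 6 reproducible regions, 2 at annotated promoters and 4 distal, the strongest 367 kb from the nearest start site with −log10 q-values of 34.7 and 15.6. Tcf12, which encodes another E protein, had 2 promoter regions and 2 distal ones, the strongest in its intron with 13.97 and 9.59. Tcf3, the third E protein gene, had a promoter region with 12.4 and 11.3. Of the Id genes, Id1, Id3 and Id4 were nearest to distal regions, Id4 with 16.6 and 8.04, and Id2 had none.

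Of the other bHLH and Hes genes, 4 of 19 had a promoter region (21.1%, against 37.1% of all genes) and 7 of 19 were nearest to a distal region (36.8%, against 20.1%). Among them Bhlhe40, a repressor of the clock family, had a region 1.01 kb from its start site with 15.5 and 21.7, and Hes1, a Notch target, had 3 distal regions. The strongest Hes1 region had 17.8 and 10.9, Bhlhe41 had 12.9 and 10.4 with CAGCTG and CACGTG in the window, and Neurod1, a neuronal bHLH factor, had 8.69 and 6.26. In the ventral and interneuron list, 5 of 17 genes had a promoter region (29.4%, against 37.1%) and 7 a distal one (41.2%, against 20.1%), among them Sox6 with 8 distal regions, Satb1 and Sst.

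In the Notch pathway list, 8 of 15 genes had a promoter region and 8 a distal one, 53.3% each against 37.1% and 20.1% of all genes. In both WT libraries, all 15 promoters had an ATAC-seq peak and 6 had an H3K27ac peak. Over all 21911 genes, 14357 and 11556 did. Of promoter consensus regions, 56.6% held Tcf4. The leading members were Rbpj, the DNA-binding effector of Notch, with a promoter region of 16.4 and 10.8, the coactivator Maml2 with 10.8 and 11.9, and the ligands Dll1 with 16.1 and 7.15 and Dll3 with 14.9 and 7.40. Dll4, Jag2 and Lfng had none. In the Wnt list, 7 of 13 genes had a promoter region (53.8%, against 37.1%) and 6 a distal one (46.2%, against 20.1%), and Tcf7, Sp5 and Lgr6 had none. Of these 13 promoters, 12 had an ATAC-seq peak and 7 an H3K27ac peak in both WT libraries. The strongest Wnt region, 88.7 kb from Axin2, was recurrent in 14 of the 16 other libraries, and Nkd1, a feedback inhibitor, followed with 17.6 and 11.0, then the ubiquitin ligase Znrf3 and Tcf7l1.

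Of 11 genes for PRC2 subunits, 7 had a promoter region (63.6%) against a background of 37.1%. All 11 promoters had H3K27ac in both WT libraries, against 52.7% of all genes. Among all genes with H3K27ac at the promoter, 66.5% of those without H3K27me3 and 69.8% of those with it had a Tcf4 region there. The share of the PRC2 list lay near these values. Rbbp4, a histone-binding subunit, had 22.2 and 13.1, Eed had 22.6 and 10.2, Suz12 had 14.6 and 7.14, and the methyltransferase gene Ezh2 had 10.2 and 7.04, all at the promoter. Phf19 had an intronic region with 26.8 and 14.01 that lay outside the ATAC consensus regions and was among the strongest 2% in 6 other libraries. Mtf2, Phf1 and Aebp2 had none. Ezh2 was also the nearest gene of 8 distal regions between chr6:47654871 and chr6:47686704, described next.

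Distal regions were counted per gene by nearest start site, at any distance, so the counts do not measure density. Of 4409 genes nearest to a distal region, 3094 had a single one. Zfp608, a zinc finger gene, led with 17, followed by Pdia4 with 13, Gse1 with 12 and Tnr with 11, and 6 genes had 8 each (Camta1, Ezh2, Itpr2, Lsamp, Prex1 and Sox6). The Zfp608 regions were spread over chr18:54482338-55693847, from 2763 to 703119 bp from the nearest start site. Of the Zfp608 regions, 15 of 17 lay in ATAC consensus regions and 7 contained CAGCTG. The Pdia4 and Ezh2 regions were different in kind: their median fold enrichments were 2.40 and 2.05 in replicate 1 and 2.74 and 2.44 in replicate 2, against 5.28 and 5.25 over all distal regions, 1 of 13 and 0 of 8 lay in consensus regions, and none contained CAGCTG. Both runs, chr6:47739250-47788856 and chr6:47654871-47686704, also carried peaks in a median of 12 and 7.5 of the 16 other libraries, and their source was not tested.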

How the data were processed

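Tcf4 occupancy was measured by anti-Flag Cut&Tag in 2 Tcf4-tag libraries, and 16 further libraries (ATAC-seq, H3K4me1, H3K27ac and H3K27me3 Cut&Tag, 2 per genotype) were used for comparison. Per the labels and the study's methods, the authors trimmed reads with Trim Galore, aligned them to mm10 (GRCm38) with Bowtie2, handled alignments with SAMtools and called peaks per library with MACS2, as broad peaks for H3K27me3. The deposited peak lists give for each peak its summit offset, its fold enrichment against local background, and −log10 p- and q-values, all written by the authors' peak caller. The deposited table of ATAC consensus regions gives the authors' mean log2 normalized reads per genotype, of which the WT mean was used. Its columns of fold change, p-value and FDR between genotypes, and a table of footprint scores with changes and p-values, hold the authors' own comparisons and were not used. Read depth is unknown from these files, so the number of peaks per list is the only measure of it.

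Peaks of both Tcf4-tag lists were merged at an overlap of at least 1 bp, and mitochondrial peaks were left out. A region was a promoter when the summit of replicate 1 lay within 1 kb of a GENCODE protein-coding start site and distal otherwise. Each region was given to the gene with the nearest such start site. Motifs were counted on both strands within 75 bp of the summit, with windows shifted by 1000 bp as flanks. Marks were scored as overlapping peaks in each library. Shares carry 95% Wilson intervals, differences of shares Newcombe intervals, and genotypes were compared by mean ± SD and an exact permutation test over libraries. Python 3.11.15, numpy 2.4.6, pandas 2.3.3, scipy 1.17.1, pysam 0.24.0, matplotlib 3.10.9 and bedtools 2.31.1 were used, and the code was tested on simulated data.

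Named genes were those of the study's chromatin assays, the nearest genes of the 10 strongest promoter and distal regions, the genes with the most distal regions, and up to 4 leading members of each list, with members that had no region where these were 5 or fewer. The members and lists were chosen with earlier results of these data known. The removal of recurrent regions, a second threshold on the q-value, the copy number classes, the arrays and the split of marks by E-box were added after the data were seen. By the study's methods, the authors removed duplicates and kept only uniquely mapped reads for peak calling. Some list members are not reported here by name.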

Additional observations from a re-analysis of the deposited data

Results flagged for a closer look

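Mitochondrial peaks, which no comparison used, numbered 4 in replicate 1 and 5 in replicate 2 of the Tcf4-tag libraries. Both counts were above 3, the floor set for flagging a count, which is not a statistical bound.

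The share of promoter regions with an H3K27me3 peak moved in opposite directions between genotypes. At promoter Tcf4 regions the difference, Tcf4 cKO minus WT, was −6.13 percentage points, and at promoter ATAC consensus regions without Tcf4 it was 3.75 points (from 25.0% ± 0.874 to 28.8% ± 1.97, SD, n = 2 each). Every Tcf4 cKO library lay below both WT libraries in the first set and above both in the second. The share at Tcf4 regions minus that at the other regions was 0.497 and 7.54 points in the WT libraries and −7.58 and −4.14 points in the Tcf4 cKO libraries, and the exact permutation test gave p = 0.33, the smallest value that 2 against 2 libraries allow. The cause was not tested.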

How the results depend on the processing

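Of 94 values recomputed under an alternative, 59 moved by less than their error or the set tolerance, 34 moved by more and 1 changed sign. Using a single Tcf4-tag list in place of both gave 16829 to 28602 regions, a promoter share of 41.0% to 47.5%, CAGCTG at 14.2% to 15.4% of all summits, 17.4% to 19.9% of distal and 9.65% to 10.5% of promoter summits, CANNTG at 48.1% to 49.2%, ATAC overlap of 72.2% to 76.8%, and 5395 to 7989 genes nearest to a distal region. A −log10 q-value of at least 5 in both lists left 8097 regions, with a promoter share of 58.3%, CANNTG at 45.1%, 5320 promoter genes and 2629 distal genes. At a value of at least 10, 2323 regions were left and 23.5% of distal summits held CAGCTG. Start sites of all transcripts gave a promoter share of 58.1%. Windows of 50 bp on each side gave CAGCTG at 10.1% of all, 14.6% of distal and 6.12% of promoter summits and CANNTG at 34.7%, and windows of 150 bp gave 25.8%, 34.6%, 18.1% and 68.1%. Summits of replicate 2 gave CAGCTG at 15.7% of all and 10.7% of promoter summits. Assignment to gene bodies with 5 kb upstream gave 2725 distal genes.

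The differences in mark shares at distal regions, Tcf4 cKO minus WT, were −5.95 points for ATAC-seq, 2.33 for H3K4me1, −11.8 for H3K27ac and −3.81 for H3K27me3. With mark peaks held to a −log10 q-value of at least 5 they were −8.62, 6.95, −6.51 and −0.809 in the same order. Leaving out single libraries gave −0.741 to 5.40 for H3K4me1, the lowest without WT replicate 1, −16.4 to −7.26 for H3K27ac, the ends without Tcf4 cKO replicate 1 and without Tcf4 cKO replicate 2, and −5.91 to −1.53 for H3K27me3, the ends without WT replicate 1 and from the list of Tcf4-tag replicate 1 alone, with −1.71 without WT replicate 2. The cause of these changes was not tested. WT and Tcf4 cKO libraries share replicate numbers and nothing in the labels says that a number marks a shared litter or day. Over distal regions, the deviations of same-numbered libraries from their group means had correlations of −0.031 to 0.014 over the 4 assays. With 2 libraries per genotype, these correlations cannot show whether same-numbered libraries shared a litter or day. With the replicate number as a block (replicate block), the means were the same −5.95, 2.33, −11.8 and −3.81 points, and the differences within replicates 1 and 2 were −5.19 and −6.71 points for ATAC-seq, 6.80 and −2.15 for H3K4me1, −10.2 and −13.5 for H3K27ac, and −1.13 and −6.49 for H3K27me3. An exact sign-flip test over 2 pairs cannot go below p = 0.5.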
